A study of Mus musculus with 6 samples.

Results

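Transcripts of 9 genes that make, limit or answer to nitric oxide, apelin and endothelin were followed in 6 RNA sequencing libraries labelled as mouse heart. The genes form a set of 10 taken for their relevance to a model that uses L-NAME, which blocks nitric oxide synthases. The set was chosen with earlier results of these data known. Its genes were matched by symbol among the 14408 genes of the expression table. The 10 are the synthases Nos2 and Nos3, the enzymes Ddah1 and Ddah2, the arginine synthesis enzymes Ass1 and Asl, the peptide ligand genes Apln and Edn1, the endothelin receptor Ednra and the guanylyl cyclase subunit Gucy1a1. The table did not list Gucy1a1. Of the 9 that were, 8 had a mean of at least 1 FPKM (fragments scaled by the length of the gene and the size of the library) and were tested, and Nos3 is described by detection.

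The libraries came from male C57BL/6J mice that were 8 weeks old when a high-fat diet and 0.5 g/L of L-NAME in the drinking water were begun, for 8 to 12 weeks, to produce heart failure with preserved ejection fraction (HFpEF). The mice then received L-proline at 300 mg/kg daily by intraperitoneal injection, or the vehicle PBS, for 4 to 8 weeks, with 3 libraries per group. Both groups carried the diet and L-NAME, and no library without them was analysed here, so effects of the model itself cannot be read from these values. The comparison asks how gene expression differed with L-proline in libraries labelled as left ventricle from this model. Nothing in the labels ties each library to its own animal, and p-values then reflect only how far these libraries differ, part of which may be technical. Library totals recovered from the FPKM values ran from 34990473 to 37498030 fragments.

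Nitric oxide is made from arginine by nitric oxide synthases and activates soluble guanylyl cyclase, whose product cyclic GMP relaxes smooth muscle. Citrulline left over from the reaction is turned back into arginine by argininosuccinate synthase and lyase, and methylated arginines that inhibit the synthases are broken down by the enzyme DDAH1. Apelin is a peptide that dilates vessels and strengthens contraction of the heart, and endothelin-1 is a peptide that constricts vessels. In the heart, endothelial cells are a known source of endothelin-1 and of nitric oxide made by Nos3.

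The labelled tissue was checked against its defining markers first. Of 13 cardiomyocyte markers, 6 were listed and 2, Tnnt2 and Nkx2-5, reached a mean of 1 FPKM, while Myh6, Actc1 and Pln were not listed. Ttn, Myl2 and Ryr2 did not exceed 0.0088, 0.105 and 0.0131 FPKM. Of 12 endothelial markers, 6 were listed and 0 reached 1 FPKM in any library. Their summed level was 1.24 to 1.31 FPKM in PBS and 1.22 to 1.32 in L-proline, and Pecam1 and Cdh5 did not exceed 0.0735 and 0.250. All 9 listed fibroblast markers of 12 reached 1 FPKM, with summed levels of 6178 to 6427 in PBS and 6443 to 6778 in L-proline. All 10 pericyte and smooth muscle markers were listed, and 7 reached a mean of 1 FPKM. Their summed levels, led by Acta2, were 1171 to 1302 in PBS and 1052 to 1273 in L-proline, while Myh11 and Rgs5 did not exceed 0.0459 and 0.145. The labelled tissue is thus not reflected in most heart muscle or endothelial markers, and levels of the vascular genes below are levels in such libraries. In bulk RNA, fewer cells of a type and less RNA per cell cannot be told apart.

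Among the 8 tested genes, 4 fell with L-proline (Apln, Ddah1, Asl and Nos2), 1 rose (Edn1) and 3 did not pass (Ddah2, Ass1 and Ednra). Genes were called with limma at a Benjamini-Hochberg adjusted p under 0.05 on log2(FPKM + 1). Of all 10500 genes tested, 19.6% passed, 12.1% lower in L-proline and 7.50% higher. With median-of-ratios scaling the split of all calls was 993 higher and 919 lower, and with quantile normalization 1077 and 1019, against 788 and 1268 as reported. The median log2 fold change was -0.38 over the 8 genes and -0.06 over all tested genes. The groups did not overlap for 6 of the 8 genes, against 40.1% of all tested genes. Because the set was chosen with earlier results of these data known, its counts and median are a description.

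**Figure D1:**
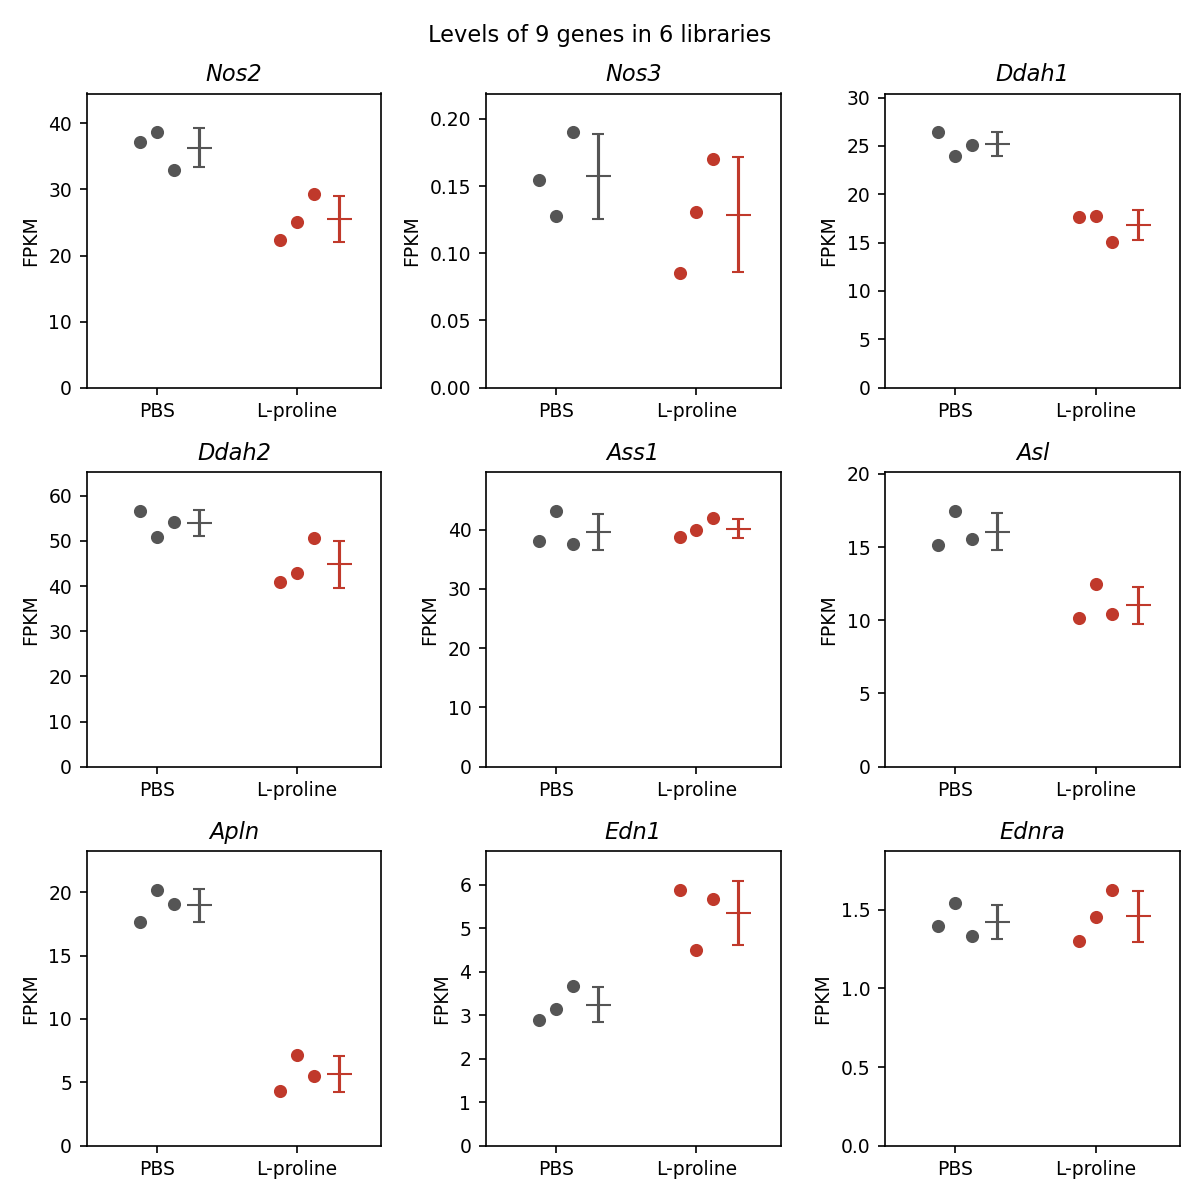
FPKM (vertical axes, each from 0) of the 9 listed genes in 3 PBS libraries (grey) and 3 L-proline libraries (red). Points are libraries, and the bar beside them is the mean with its SD. The 3 Apln values in L-proline lie between 4.35 and 7.13, all below the lowest PBS value of 17.6, and Edn1 is the 1 gene with all L-proline values above all PBS values.

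Apelin transcripts showed the largest change of the set. Apln, which encodes the apelin precursor, stood at 17.6, 20.2 and 19.0 FPKM in PBS 1, 2 and 3 and at 4.35, 7.13 and 5.49 in L-proline 1, 2 and 3. Every L-proline library was lower than every PBS library, with a wide gap between the groups. The means were 18.96 ± 1.28 and 5.66 ± 1.40 FPKM (SD, n = 3 each), a PBS level 3.35 times that in L-proline. The log2 fold change was -1.60 ± 0.15 (SE; limma, adjusted p = 0.000484), and 6 of the 10500 tested genes had a larger decrease on that scale. The call rested on 2083 to 2284 fragments per library in PBS and 503 to 786 in L-proline. It held in all 13 alternatives, with adjusted p values from 0.000262 to 0.00391. Summed mesothelial markers moved with it, at 51.2 to 52.6 FPKM in PBS and 26.3 to 27.5 in L-proline. That sum (4 of 8 markers listed) was mostly Msln and Krt19, and Lrrn4 did not exceed 0.0658 FPKM. The cardiac troponin gene Tnnt2 was lower as well, at 32.0 ± 0.777 and 14.5 ± 1.51. The other cardiomyocyte marker above 1 FPKM, Nkx2-5, was at 3.43 ± 0.232 and 3.34 ± 0.308 and did not pass (limma, adjusted p = 0.829). Of markers in the other lists, Mcam, Vim and Pdgfra were called lower too, while Cd68, Col1a1, Col1a2, Col3a1 and Dpt were called higher. The part of any of these cell types in the decrease of Apln was not tested.

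The apelin receptor was low but detected in every library. Aplnr, the G protein-coupled receptor of apelin, was at 0.120, 0.0703 and 0.0994 FPKM in PBS 1, 2 and 3, from 16, 9 and 13 fragments. In L-proline 1, 2 and 3 it was at 0.138, 0.369 and 0.107 FPKM, from 18, 46 and 14 fragments. L-proline 2 was the highest library, and the ranges overlapped (exact two-sided permutation p = 0.2, where 3 libraries against 3 cannot go below 0.1). Apela, a gene of a second ligand of this receptor, was not listed.

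Of 10 genes in the apelin list, which holds the ligands, the receptor, processing enzymes and transducers, 6 were tested, and 3 fell, 0 rose and 3 did not pass with limma. At an unadjusted p under 0.05, 0 were higher as well, and voom also called 0 higher. The median log2 fold change was -0.25, beside -0.06 over all tested genes, of which 12.1% were lower and 7.50% higher. Arrb2, a beta-arrestin that binds activated receptors, was at 12.1, 13.2 and 12.1 FPKM in PBS and at 8.92, 8.83 and 8.12 in L-proline 1, 2 and 3. It fell by 0.48 ± 0.08 on the log2 scale (limma, adjusted p = 0.00557) and passed in all 13 alternatives. Its relative Arrb1 went from 6.33 ± 0.298 to 4.90 ± 0.521 FPKM and passed only narrowly (adjusted p = 0.0494), with 2 of 13 alternatives past the threshold. The inhibitory G protein genes Gnai2 and Gnai3 and the convertase gene Furin did not pass, with adjusted p values of 0.996, 0.296 and 0.570.

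The promoters of the 2 peptide genes that moved in opposite directions are given so that their sequences can be compared. Each is the 250 bases before the annotated start, 5′ to 3′ on the strand of the gene, from RefSeq on GRCm38.p6. The windows are chrX:48034854-48035103 on the minus strand for Apln and chr13:42301226-42301475 on the plus strand for Edn1. Capitals mark a match to the TEAD element GGAATG, here on the opposite strand.
Apln: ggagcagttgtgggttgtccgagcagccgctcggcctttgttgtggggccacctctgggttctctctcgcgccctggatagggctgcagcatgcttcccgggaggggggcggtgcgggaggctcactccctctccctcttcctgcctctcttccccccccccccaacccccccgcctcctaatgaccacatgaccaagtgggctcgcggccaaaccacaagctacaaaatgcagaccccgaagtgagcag
Edn1: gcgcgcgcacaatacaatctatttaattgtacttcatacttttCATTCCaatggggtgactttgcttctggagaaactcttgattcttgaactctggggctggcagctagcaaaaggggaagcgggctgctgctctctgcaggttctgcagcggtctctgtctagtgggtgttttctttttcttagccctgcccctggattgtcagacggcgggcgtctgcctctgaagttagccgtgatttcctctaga

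The motifs searched were 3, on both strands in windows of 300 bases (250 before and 50 after the start). They were ACGTG, the core of the hypoxia response element, TGANTCA, the AP-1 element, and GGAATG. Windows were found for 6 of the 9 listed genes (Apln, Edn1, Ednra, Ddah1, Ddah2 and Ass1). The Apln, Ddah1 and Ednra windows held none of the 3 motifs. The Edn1 window held GGAATG at 207 bases before the start and ACGTG at 22 bases after it. ACGTG was found also in the Ass1 window and GGAATG in the Ddah2 window, and TGANTCA in none of the 6. Among 32851 promoters of the same length, 19.6% held ACGTG, 7.81% TGANTCA and 14.7% GGAATG. These matches describe letters only.

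Endothelin-1 transcripts moved the other way. Edn1, which encodes the endothelin-1 precursor, was at 2.89, 3.15 and 3.68 FPKM in PBS 1, 2 and 3 and at 5.88, 4.50 and 5.67 in L-proline 1, 2 and 3. All L-proline libraries were higher than all PBS libraries. The means were 3.24 ± 0.402 and 5.35 ± 0.743 FPKM (SD, n = 3 each), a ratio of 1.65, and the log2 fold change was 0.58 ± 0.12 (limma, adjusted p = 0.0122). The counts behind these values were 232 to 289 fragments in PBS and 337 to 462 in L-proline. Without PBS 1 the gene no longer passed (adjusted p = 0.0567), and it passed in the other 12 alternatives (0.00610 to 0.0567 over all 13). Endothelial markers, given above, were below 1 FPKM in both groups.

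The receptor through which endothelin-1 constricts smooth muscle was low and did not pass. Ednra was at 1.40, 1.54 and 1.33 FPKM in PBS 1, 2 and 3 and at 1.30, 1.45 and 1.63 in L-proline 1, 2 and 3, and the groups overlapped. The log2 fold change was 0.02 ± 0.09 with a 95% interval from -0.19 to 0.23 (limma, adjusted p = 0.899). That interval still allows a change of -12.6% to 17.6% on the FPKM + 1 scale. Since Ednra is near 1 FPKM, the added 1 shrinks its fold change. The other receptor, Ednrb, and the ligands Edn2 and Edn3 were not listed.

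Of 15 genes in the endothelin list, 9 were tested. Among them 1 rose (Edn1), 1 fell (Plcb3) and 7 did not pass, with a median log2 fold change of -0.02. For all tested genes the shares were 12.1% lower and 7.50% higher, with a median of -0.06. Ece1, which converts the precursor to active endothelin-1, was at 18.9 ± 0.0765 FPKM in PBS and at 17.5 ± 0.796 in L-proline (adjusted p = 0.332). The phospholipase C gene Plcb3, which acts after G proteins of the Gq family, was at 47.4, 48.6 and 47.3 FPKM in PBS and at 33.8, 35.8 and 37.7 in L-proline 1, 2 and 3. It fell by 0.41 ± 0.07 on the log2 scale (limma, adjusted p = 0.00596) and passed in all 13 alternatives. Gnaq (adjusted p = 0.0952) and Plcb4 (0.176) did not pass as reported. Both did so without L-proline 1, when 3 genes of the list were called lower. That setting also called more of all genes, 965 higher and 1797 lower, against 788 and 1268 as reported.

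Within a library, the opposite changes of the 2 ligand genes show as a ratio of their FPKM values. Edn1 over Apln was 0.164, 0.156 and 0.193 in PBS 1, 2 and 3. It was 1.35, 0.631 and 1.03 in L-proline 1, 2 and 3. Edn1 thus stood well below Apln per length in every PBS library and near it in L-proline, above it in 2 of 3 libraries. No test was run on this ratio.

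**Figure D2:**
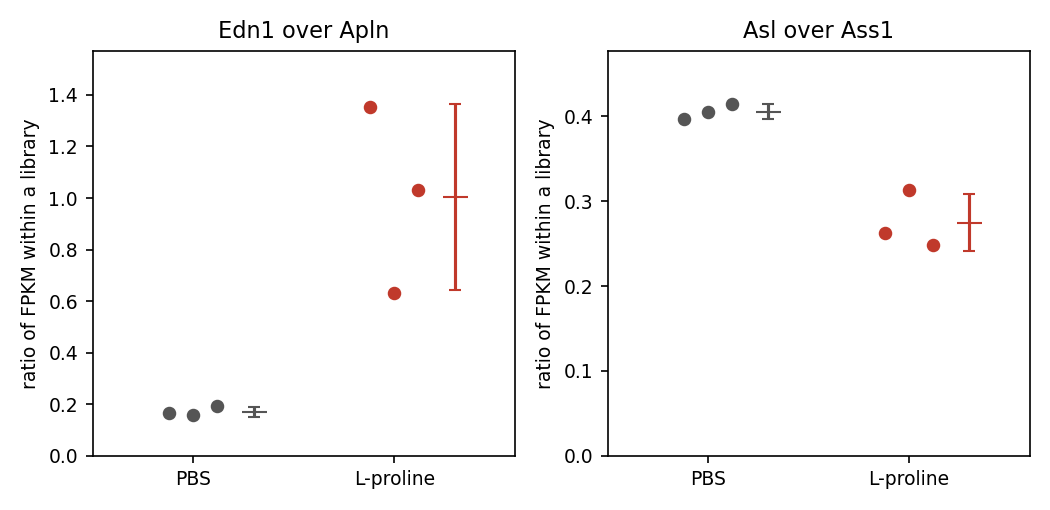
Ratio of FPKM values within a library (vertical axes, from 0) for Edn1 over Apln (left) and Asl over Ass1 (right) in 3 PBS libraries (grey) and 3 L-proline libraries (red). Points are libraries, and the bar beside them is the mean with its SD. The Edn1 to Apln ratio is at most 0.193 in PBS and at least 0.631 in L-proline, and the Asl to Ass1 ratio is 0.397 to 0.415 in PBS and 0.248 to 0.313 in L-proline.

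Among nitric oxide synthases, the inducible form dominated and fell. Nos2, the synthase induced by cytokines, was at 37.3, 38.7 and 33.0 FPKM in PBS 1, 2 and 3 and at 22.3, 25.1 and 29.3 in L-proline 1, 2 and 3. The highest L-proline library lay below the lowest PBS library. The means were 36.3 ± 2.99 and 25.6 ± 3.51 FPKM (SD, n = 3 each), and the log2 fold change was -0.49 ± 0.11 (limma, adjusted p = 0.0179). It did not pass without PBS 1 (adjusted p = 0.0708), PBS 2 (0.0565) or L-proline 2 (0.0555), and passed in the other 10 alternatives. Nos2 is known from activated macrophages, so their markers were set beside it. Of 12 macrophage markers 5 were listed, with summed levels of 19.7 to 22.2 FPKM in PBS and 21.8 to 25.4 in L-proline. Most of that sum was Cd14, at 14.3 to 17.7 FPKM over the 6 libraries. The defining markers Csf1r and Mrc1 did not exceed 0.274 and 0.0307, and Ptprc, Adgre1 and Itgam were not listed. Of the 3 markers above a mean of 1 FPKM, Cd68 rose from 3.17 ± 0.536 to 5.19 ± 0.297 FPKM (limma, adjusted p = 0.0101), while Lyz2 (1.69 ± 0.508 and 1.88 ± 0.524) and Cd14 (15.6 ± 1.58 and 16.5 ± 1.22) did not pass. The part of these cells in the level of Nos2 was not tested.

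The endothelial synthase was detected at a trace level. Nos3 was at 0.154, 0.127 and 0.190 FPKM in PBS 1, 2 and 3, from 24, 19 and 29 fragments. In L-proline 1, 2 and 3 it was at 0.0853, 0.131 and 0.170 FPKM, from 13, 19 and 26 fragments. Every library was above 3 fragments, which for this gene correspond to at most 0.0207 FPKM. The groups overlapped (exact two-sided permutation p = 0.5), and small changes of this gene were not detectable at this depth. Nos1, the neuronal form, was at 0.314 ± 0.0145 FPKM in PBS and at 0.265 ± 0.0183 in L-proline. Its groups did not overlap, and the exact two-sided permutation p of 0.1 was the smallest possible.

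Of the 2 DDAH genes, Ddah1 fell, whose enzyme breaks down asymmetric dimethylarginine, a natural inhibitor of the synthases. Ddah1 was at 26.5, 23.9 and 25.1 FPKM in PBS 1, 2 and 3 and at 17.7, 17.7 and 15.1 in L-proline 1, 2 and 3, with no overlap. The means were 25.2 ± 1.26 and 16.8 ± 1.54 FPKM (SD, n = 3 each). The log2 fold change was -0.56 ± 0.09 (limma, adjusted p = 0.00472), and the gene passed in all 13 alternatives. Ddah2, the more abundant of the pair per length, was at 56.7, 51.0 and 54.2 FPKM in PBS 1, 2 and 3 and at 41.0, 42.8 and 50.6 in L-proline 1, 2 and 3. Its groups did not overlap either, but L-proline 3 came within 1 FPKM of the lowest PBS library. It had a log2 fold change of -0.27 ± 0.09 and did not pass (limma, adjusted p = 0.0793). Without L-proline 3 it passed (adjusted p = 0.0230). Whether the 2 genes changed by different amounts was not tested.

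Of the 2 enzymes that remake arginine from citrulline, Asl fell and Ass1 did not pass. Asl, the lyase, was at 15.1, 17.5 and 15.6 FPKM in PBS 1, 2 and 3 and at 10.2, 12.5 and 10.4 in L-proline 1, 2 and 3. The groups did not overlap, the means were 16.1 ± 1.25 and 11.0 ± 1.27 FPKM (SD, n = 3 each), and the log2 fold change was -0.51 ± 0.10 (limma, adjusted p = 0.0108). The gene passed in all 13 alternatives. Ass1, the synthase of the pair, was at 38.1, 43.1 and 37.5 FPKM in PBS 1, 2 and 3 and at 38.7, 39.9 and 41.9 in L-proline 1, 2 and 3. These values overlapped, with a log2 fold change of 0.02 ± 0.08 and a 95% interval from -0.16 to 0.20 (limma, adjusted p = 0.862). Asl over Ass1 within a library was 0.397, 0.405 and 0.415 in PBS 1, 2 and 3 and 0.263, 0.313 and 0.248 in L-proline 1, 2 and 3. No test was run on this ratio.

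The list of nitric oxide synthesis and arginine supply held 23 genes, of which 21 were listed and 16 tested. Of these, 5 fell (Nos2, Ddah1, Asl, Slc7a2 and Nosip), 1 rose (Slc7a1) and 10 did not pass, and the median log2 fold change was -0.06. All tested genes also had a median of -0.06, with 12.1% lower and 7.50% higher. Of this list, 2 genes were lower without PBS 1 or L-proline 2, and 3 without PBS 2 or PBS 3. The 2 carriers of arginine into cells moved in opposite directions. Slc7a1, the CAT-1 carrier, was at 3.64, 3.90 and 3.47 FPKM in PBS and at 6.30, 5.77 and 7.06 in L-proline 1, 2 and 3. Its log2 fold change was 0.66 ± 0.09 (limma, adjusted p = 0.00327). Slc7a2, the CAT-2 carrier, was at 28.4, 17.9 and 23.95 FPKM in PBS and at 17.0, 12.2 and 12.0 in L-proline 1, 2 and 3. Its log2 fold change was -0.72 ± 0.18 (limma, adjusted p = 0.0295). Every alternative kept the call of Slc7a1, while 8 of 13 kept that of Slc7a2. Slc7a2 missed the threshold without PBS 1 (adjusted p = 0.0994), PBS 3 (0.106), L-proline 2 (0.0944) or L-proline 3 (0.0828), and with no filter (0.0525).

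Genes for tetrahydrobiopterin, the cofactor of all nitric oxide synthases, namely Gch1, Gchfr, Pts, Spr and Qdpr, did not pass. Gch1, the first enzyme of its synthesis, was at 7.04, 6.47 and 6.89 FPKM in PBS and at 8.20, 7.65 and 8.57 in L-proline 1, 2 and 3 (limma, adjusted p = 0.0843). Its feedback regulator gene Gchfr was at 97.9 ± 6.06 and 82.2 ± 7.24 FPKM (adjusted p = 0.0713). With quantile normalization both passed, Gch1 higher (0.0337) and Gchfr lower (0.0265). Nosip, whose product binds the endothelial synthase, fell from 16.3 ± 0.747 to 12.9 ± 1.37 FPKM (adjusted p = 0.0463), and 3 of 13 alternatives kept that call. The arginase Arg2 was at most 0.154 FPKM, and Arg1 was not listed.

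Subunits of soluble guanylyl cyclase, the receptor of nitric oxide, were near 0 or not listed. Besides Gucy1a1, the partner subunit Gucy1b1 was not listed, and the alternative subunit Gucy1a2 did not exceed 0.0181 FPKM. Prkg1, the cyclic GMP-dependent kinase of smooth muscle, did not exceed 0.0688 FPKM. The natriuretic peptide receptor Npr1 was at 0.397 ± 0.124 FPKM in PBS and at 0.227 ± 0.0436 in L-proline. Its groups did not overlap (exact two-sided permutation p = 0.1, the smallest possible). The list of cyclic GMP signalling held 22 genes, of which 18 were listed and 10 tested. Of those, 4 fell (Prkg2, Pde1a, Npr2 and Npr3), 1 rose (Pde1b) and 5 did not pass, with a median log2 fold change of -0.32. Over all tested genes, 12.1% were lower and 7.50% higher, with a median of -0.06. Nppb, which encodes the natriuretic peptide BNP, was under the filter and is named after its values were seen. It was at 0.797, 0.462 and 1.09 FPKM in PBS 1, 2 and 3, from 36, 20 and 48 fragments. In L-proline 1, 2 and 3 it was at 0.0226, 0.237 and 0.113 FPKM, from 1, 10 and 5 fragments. Every L-proline library was below every PBS library (exact two-sided permutation p = 0.1, the smallest possible). Nppa and Nppc, the other natriuretic peptide genes searched, were not in the table.

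Prkg2, the second cyclic GMP-dependent kinase, was at 23.5, 18.7 and 24.9 FPKM in PBS and at 13.1, 12.0 and 6.13 in L-proline 1, 2 and 3. Its log2 fold change was -1.09 ± 0.24 (limma, adjusted p = 0.0186). Every L-proline library was below every PBS library, with L-proline 3 the lowest. Of the phosphodiesterases activated by calmodulin, Pde1a fell from 2.17 ± 0.479 to 1.02 ± 0.0989 FPKM (limma, adjusted p = 0.0109) and Pde1b rose from 2.56 ± 0.264 to 3.55 ± 0.240 (0.0340). The C-type natriuretic peptide receptor Npr2 fell from 10.01 ± 0.602 to 7.61 ± 0.395 FPKM (0.0212). The clearance receptor Npr3 fell from 5.97 ± 0.891 to 3.90 ± 0.895 (0.0496). Pde5a, the phosphodiesterase that sildenafil inhibits, was at 7.70 ± 1.53 and 5.66 ± 2.11 FPKM and did not pass (0.217). Without PBS 1 or without PBS 3, 0 genes of this list were called in either direction with limma. Calls over all genes fell as well, from 788 higher and 1268 lower to 384 and 584 without PBS 1 and to 362 and 508 without PBS 3. The call of Pde1b was also lost without PBS 2, L-proline 2 or L-proline 3. At an unadjusted p under 0.05, 1 gene was higher and 6 were lower without PBS 1, and 1 and 5 without PBS 3. Npr3 passed in 4 of 13 alternatives, Pde1b in 7, Npr2 in 9, and Prkg2 and Pde1a in 11 each. The call of Npr2 was also lost without PBS 2 (limma, adjusted p = 0.0568) and with quantile normalization (0.0655).

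**Figure D3:**
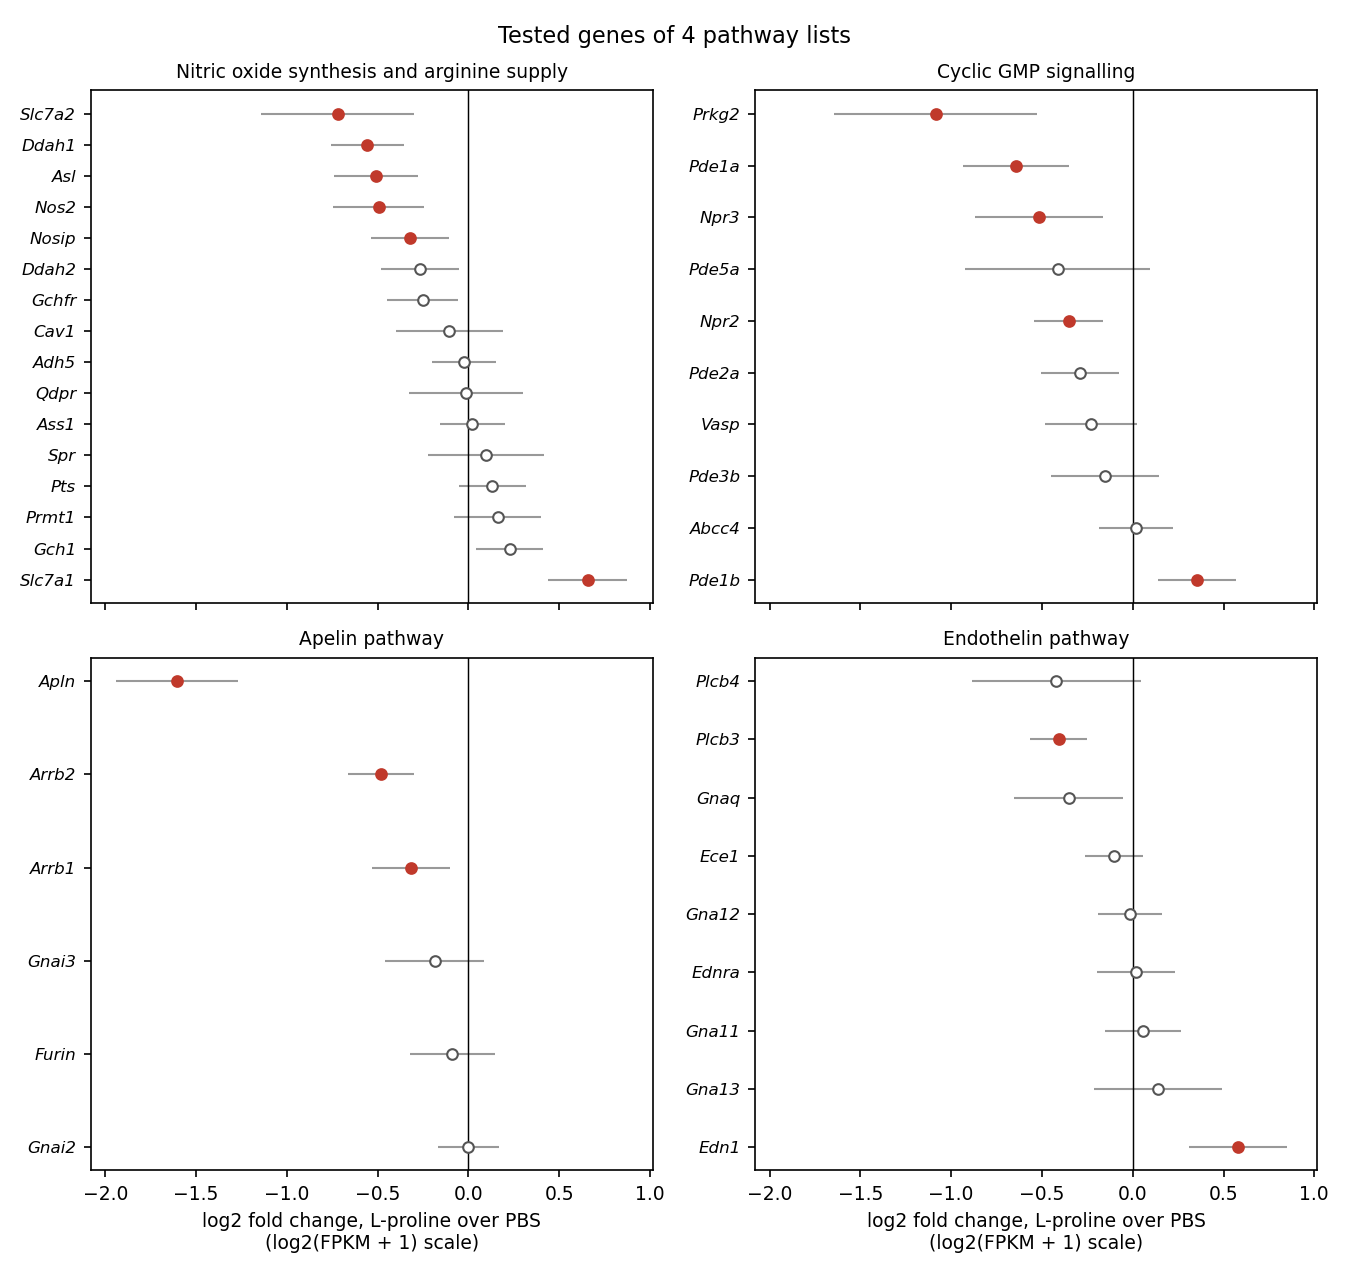
Log2 fold change of L-proline over PBS on the log2(FPKM + 1) scale (horizontal axes) for the tested genes of the 4 lists, 1 panel per list. Lines are 95% intervals from limma, filled red points passed the adjusted threshold of 0.05 and open points did not. Apln lies farthest from 0 at -1.60, and Edn1, Slc7a1 and Pde1b are the 3 genes called higher.

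Over the 4 lists together, 41 of 69 genes were tested, of which 13 fell and 3 rose, beside 12.1% lower and 7.50% higher among all tested genes. Leaving out the 10 named genes, 33 were tested, of which 9 fell and 2 rose, with a median log2 fold change of -0.15. The lists were chosen with results of these data known, and these counts are a description.

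The order of levels per length differed in 1 place between the groups. In PBS the order of mean FPKM was Ddah2, Ass1, Nos2, Ddah1, Apln, Asl, Edn1, Ednra and Nos3. The ranges of neighbours overlapped only for Ass1 and Nos2 (37.5 to 43.1 and 33.0 to 38.7 FPKM). In L-proline, Apln came after Asl and next to Edn1, and the ranges of Apln (4.35 to 7.13) and Edn1 (4.50 to 5.88) overlapped. Ddah2 and Ass1 overlapped there as well, at 41.0 to 50.6 and 38.7 to 41.9 FPKM.

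The genes whose profiles over the 6 libraries were most like that of Apln were found by the root mean square distance between log2(FPKM + 1) values, each centred on its own mean. The 5 nearest of all tested genes were Dusp6 (0.128), a phosphatase gene that limits ERK signalling, Tigit (0.134), a gene known from lymphocytes, Nefm (0.138) and Nefl (0.161), which encode neurofilament chains, and Ankrd1 (0.173), a gene of a stress-responsive ankyrin repeat protein. Dusp6 was at 30.6 ± 1.03 FPKM in PBS and at 10.9 ± 2.34 in L-proline. Ankrd1 was at 222 ± 13.0 and 86.5 ± 15.0 FPKM. All 5 were lower in L-proline, as this measure favours genes with a group difference of similar size, and the distances are a description.

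**Figure D4:**
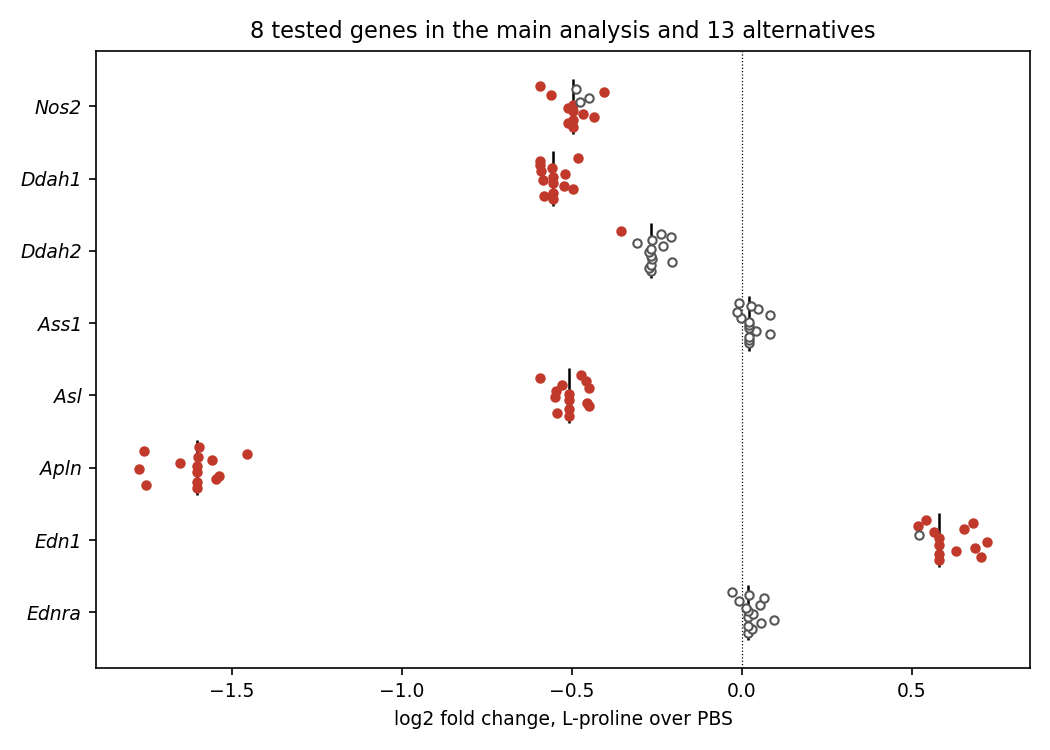
Log2 fold change of L-proline over PBS (horizontal axis) for the 8 tested genes as reported (vertical black line) and in 13 alternatives (points near the line include the reported value). Red points passed the adjusted threshold of 0.05 and open points did not. Apln, Ddah1 and Asl are red throughout, Nos2 is open in 3 alternatives and Edn1 in 1.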

How the data were processed

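RNA was profiled in 6 libraries, 3 PBS and 3 L-proline, grouped by sample title. Per the labels' protocols, RNA was extracted from about 30 mg of left ventricle with TRIzol, and 1.5 µg of it entered NEBNext Ultra library preparation for paired-end NovaSeq sequencing. HISAT2, HTSeq 0.13.5 and GRCm39 appear in the submitters' processing notes with no role given. Per the file headers, the authors deposited FPKM values, which are scaled to gene length and library total, so each value depends on the gene model and on abundant genes. The rule by which genes were listed is not stated in the labels or headers.

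FPKM values were whole multiples of 1 fragment: totals solved from 13 mitochondrial genes gave whole fragments (within 0.01) for 14407 of 14408 genes. These fragments served for detection and for one alternative. Where all counts of a gene share a factor, fragments are understated, so none are given for Nos1. A value of 3 fragments on a gene of 1 kb was 0.0800 to 0.0857 FPKM, counting error only.

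Log2(FPKM + 1) was fitted with limma 3.58.1 (R 4.3.3, trended empirical Bayes, two-sided) over all genes with a mean of at least 1 FPKM, with Benjamini-Hochberg adjustment and a threshold of 0.05. Fold changes on this scale understate those of low genes. Errors are SD over libraries for FPKM and SE for log2 fold changes. Genes under the filter were compared by exact permutation tests. The fits were also run on simulated counts, drawn independently with a dispersion shared by all genes. That setting is simpler than these libraries, so it gives no measure of the calls here. The 13 alternatives were a pseudocount of 0.1, no filter, median-of-ratios scaling, quantile normalization, a robust variance model, voom on fragments, the replicate number as a block, and leaving out each of the 6 libraries.

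The genes named are the 10 of the set, genes of the 4 lists past the threshold or with the smallest p, a selection of ligands, receptors and enzymes of the lists, the 5 genes nearest to Apln, and markers for their levels. Of the genes first put on the lists, 2 are not reported here and enter no count of a list. The set and lists were chosen with earlier results of these data known.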

Additional observations from a re-analysis of the deposited data

How the results depend on the processing

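Over the 8 tested genes and 13 alternatives, 94 of 104 values kept their direction and their side of the threshold, 4 lost the call, 1 gained it and 5 changed sign. The lost calls were Nos2 in 3 and Edn1 in 1, and the gained call was Ddah2, as given with the results. The sign changes were all near 0, with leave-one-out ranges of -0.0144 to 0.0841 for Ass1 and -0.0287 to 0.0669 for Ednra. For genes that passed, leave-one-out log2 fold changes ran from -1.76 to -1.46 for Apln, -0.59 to -0.48 for Ddah1, -0.59 to -0.45 for Asl, -0.59 to -0.40 for Nos2 and 0.52 to 0.68 for Edn1.

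Leaving out 1 library gave 362 to 965 genes higher and 508 to 1797 lower over all genes. The set of 8 had 0 to 1 higher and 3 to 5 lower. The nitric oxide list had 2 to 5 lower and, with quantile normalization, 2 higher, and 3 lower with no filter. The cyclic GMP list had 0 to 1 higher and 0 to 5 lower, and 0 higher with no filter, a setting that tests more genes. The endothelin list had 0 to 1 higher and 1 to 3 lower. Fewer libraries did not always leave a wider error in these fits. The SE of Apln was 0.146 as reported, 0.179 without PBS 3 and 0.114 without L-proline 1. Among all genes, 384 were higher and 584 lower without PBS 1, 362 and 508 without PBS 3, and 844 were lower without PBS 2. Without L-proline 1, 965 were higher and 1797 lower.

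Same-numbered libraries did not deviate together in every case (correlations across genes of 0.65, 0.42 and -0.35). Deviations were taken from the mean of each group, so those of its 3 libraries offset each other. These correlations therefore cannot decide whether libraries were paired, and the numbers were not taken as pairs. Libraries of unlike number deviated together or apart about as strongly, from -0.75 for PBS 2 with L-proline 1 to 0.53 for PBS 2 with L-proline 3. The source of this shared variation was not tested. With the replicate block, 908 genes were higher and 1475 lower, and the set kept 1 higher and 4 lower. Among tested genes of the 4 lists, the block ended the calls of Npr3 (limma, adjusted p = 0.0583) and Arrb1 (0.0644) and added Vasp (0.0478). Median-of-ratios scaling ended those of Nosip (0.104), Npr3 (0.0532) and Arrb1 (0.0933). At this depth Nos3 and Aplnr, with at most 29 and 46 fragments per library, do not allow small changes to be seen.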
